A study of Bos taurus with 6 samples.

Results

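The matrix metalloproteinases (MMP), the ADAMTS proteases and the tissue inhibitors of metalloproteinases (TIMP) were followed in DNA methylation data of bovine dermal fibroblasts. Members were all windows of 3 kb on chromosomes 1 to 29 labelled with MMP, ADAMTS or TIMP followed by a number, which gave 40 genes (19 MMP, 18 ADAMTS and 3 TIMP) of 24047 labelled genes on these chromosomes. They held 1215 windows (235 MMP, 958 ADAMTS and 22 TIMP) of 335024 labelled autosomal windows and of 902984 windows in all. The rule used names and positions and no measured value. MMP23B, with a letter in its name, and TIMP1, on the X chromosome, lie outside the rule.

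Both families of proteases are zinc enzymes that are secreted or held at the cell surface, and fibroblasts make many of them in skin. MMPs cleave collagens, proteoglycans and other matrix proteins, ADAMTS enzymes process procollagens and cleave large proteoglycans, and TIMPs block the active site of both with different preference. In mammalian genomes the CpG-rich starts of many genes carry little methylation, while the bodies of genes are mostly methylated.

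The cultures came from 3 Holstein heifers, each sampled at 5 and at 16 months of age, and were used at passage 5 without LPS and without the demethylating agent of the study, with 1 library for each heifer and age (n = 3 at either age). The comparison by age asked whether the methylation of these genes differed between cultures from young and older animals. In MIRA-Seq, sheared DNA is captured by proteins with affinity for methylated CpG, so the signal of a window grows both with methylation and with how many CpG sites it holds. Cultured cells can differ from the skin they were taken from, and a sample of a heifer at an age was 1 culture.

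Counted reads ranged from 19.9 to 43.6 M per library and matched reads from 32.5 to 68.1 M. Levels are given as RPKM, the reads per kb and per M matched reads, which sets no scale of percent methylation. Sets of 3 values are listed in the order of animals 1, 2 and 3. The libraries of animal 3 stood apart from the other 4. Their Spearman correlation with each other across the tested windows was 0.916, against 0.724 to 0.827 with the libraries of animals 1 and 2. No pair of libraries agreed within sampling noise (chi-square per degree of freedom 2.40 to 9.17), so none was counted as a repeat of another. The start of a gene was taken as its first labelled window on its strand with the window upstream of it, and the body as its other labelled windows. In 35 of 40 genes the first window carried the first coding segment. It carried a later segment in MMP1, ADAMTS10, ADAMTS19 and TIMP4, whose starts may therefore lie further upstream. In MMP25 it carried no coding segment. The upstream window carried the label of another gene in 6 of 40 (MMP1, MMP8, MMP14, MMP25, TIMP3 and TIMP4).

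The proteases carried more signal in their bodies than at their starts. The median over the 40 genes was 0.0683 RPKM at starts and 0.187 RPKM in bodies, and over all labelled autosomal genes it was 0.0545 RPKM at starts and 0.0900 RPKM in bodies. Bodies exceeded starts in 32 of 40 genes by their means, in 13 of 19 MMP, 17 of 18 ADAMTS (94.4%) and 2 of 3 TIMP genes. Over all genes with a body the share was 67.0%, close to the 68.4% of MMP and 66.7% of TIMP genes. In 25 of 40 genes (62.5%) the body exceeded the start in all 6 libraries, against 47.4% of the 19871 autosomal genes with a body. This count held 15 of 18 ADAMTS genes, 9 of 19 MMP genes (47.4%, the share of all genes) and 1 of 3 TIMP genes, which was TIMP3.

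**Figure D1:**
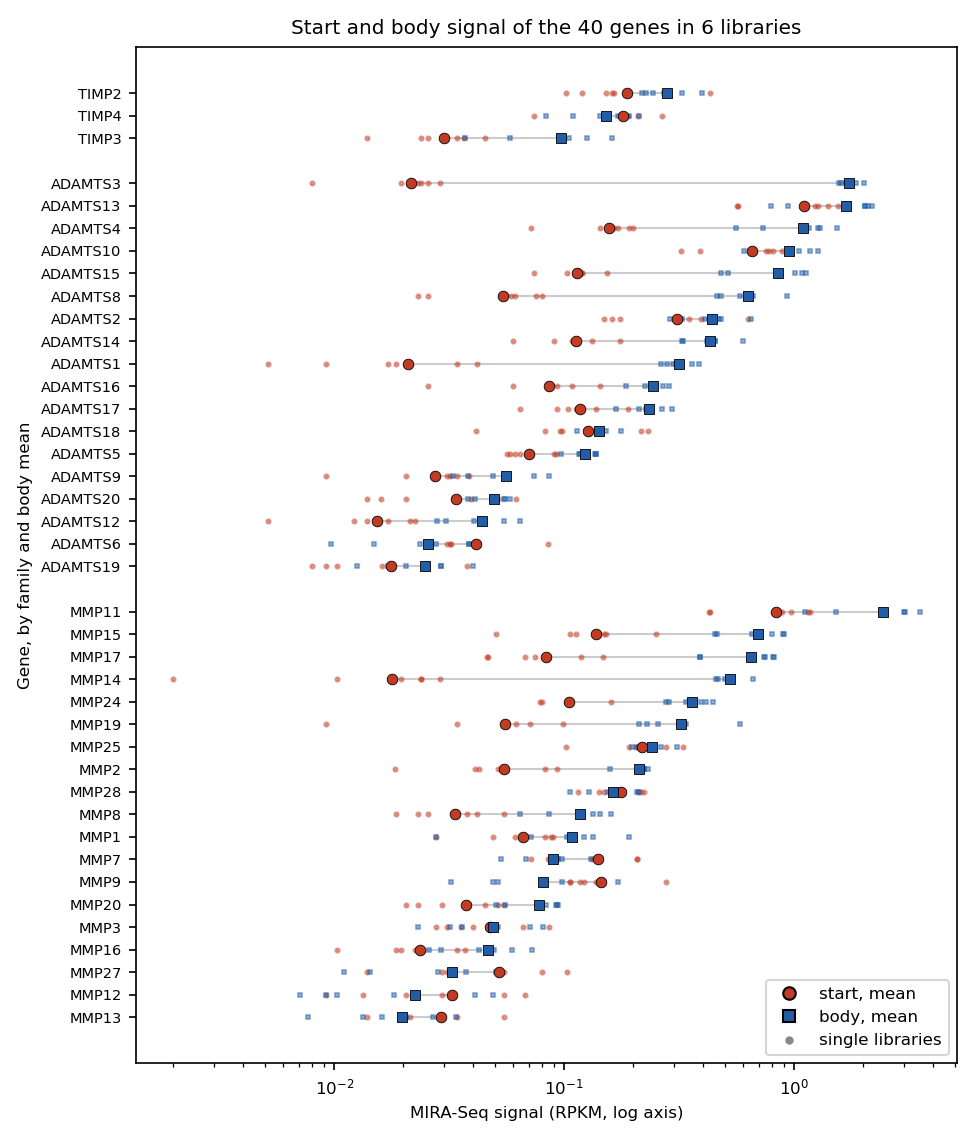
Start signal (red circles) and body signal (blue squares) of each of the 40 genes in RPKM on a log axis, with small points for the 6 libraries and large points for their means. Library values under 0.002 RPKM are drawn at 0.002, which applies to 1 library at the MMP14 start. Red lies left of blue in 32 genes, the distance is widest in ADAMTS3, MMP14 and ADAMTS1, and most genes of low signal have both points close together.

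Start and body were compared within each library on the mean over genes of log2(RPKM + 0.05). In the MMP family the start minus body was -0.82, -0.77 and -0.73 at 5 months and -0.88, -0.82 and -0.51 at 16 months. In the ADAMTS family these values were -1.26, -1.12 and -1.07 at 5 months and -1.25, -1.46 and -1.05 at 16 months. Starts were below bodies in all 6 libraries in both families. The mean difference was -0.75 ± 0.13 (SD, n = 6) for MMP and -1.20 ± 0.16 (SD, n = 6) for ADAMTS, each with an exact two-sided sign-flip p of 0.0312 (0.0469 adjusted over 3 families by Benjamini-Hochberg). For the TIMP genes the difference was 0.10, -0.34 and -0.53 at 5 months and -0.60, -0.46 and -0.63 at 16 months. It was negative in 5 of 6 libraries, with a mean of -0.41 ± 0.27 (SD, n = 6; exact p = 0.0625, adjusted 0.0625). The 6 libraries come from 3 animals, and over animals alone no exact test of this size can go below 0.25.

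**Figure D2:**
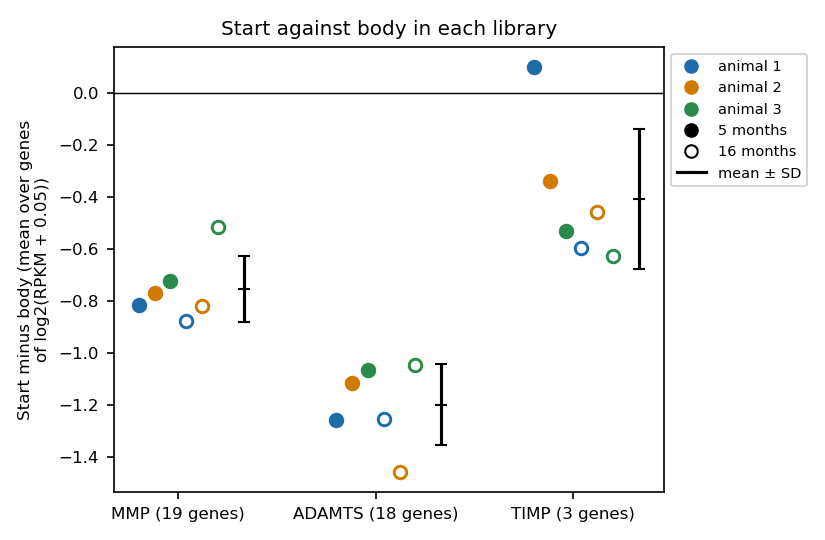
Start minus body, as the mean over genes of log2(RPKM + 0.05), for each library and family, with filled points for 5-month and open points for 16-month cultures, colours for animals and bars for mean ± SD over 6 libraries. All MMP and ADAMTS points lie below 0, and 1 TIMP point, the 5-month culture of animal 1, lies above it.

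With distance along the gene strand the median over MMP genes was 0.0376 RPKM in the window upstream of the first labelled window, 0.0657 in the first labelled window, and 0.118 and 0.135 in the windows 6 and 9 kb further in. ADAMTS genes had 0.0447 RPKM upstream, 0.0841 in the first window and 0.124 and 0.116 at 6 and 9 kb, but 0.0442 at 12 kb and 0.0754 at 15 kb. MMP genes gave 0.111 and 0.0598 RPKM at 12 and 15 kb, where 11 and 8 genes remain, and 0.0804 RPKM 9 kb upstream, against 0.0449 RPKM there for all genes. Over all labelled genes the median was 0.0421 RPKM in the upstream window, 0.0491 in the first, and 0.0611, 0.0594, 0.0564 and 0.0529 at 6, 9, 12 and 15 kb. The quartiles of both families overlapped at neighbouring positions, so the profile describes these genes and was not tested.

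**Figure D3:**
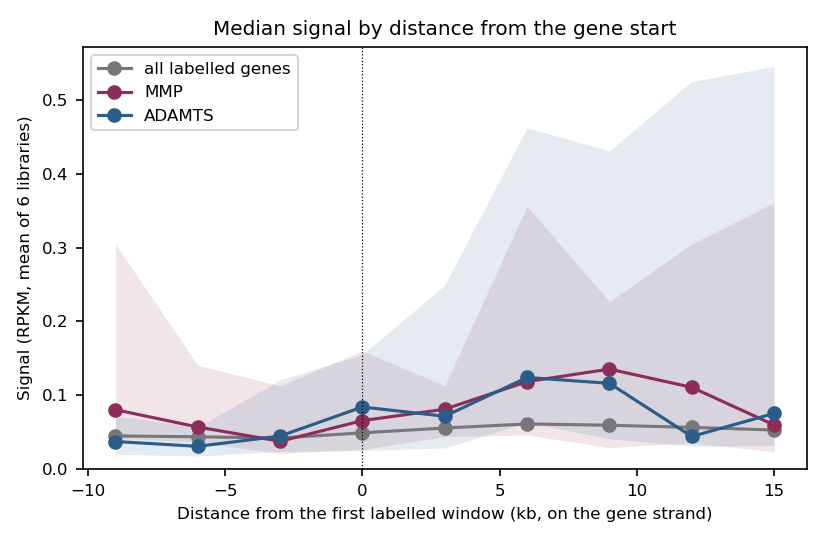
Median over genes of the mean RPKM of 6 libraries, by distance from the first labelled window on the strand of the gene (kb), for MMP, ADAMTS and all labelled genes, with bands from the lower to the upper quartile for MMP and ADAMTS. Positions inside the gene use windows with its label, so the number of genes falls with distance. Both families lie above all genes at 6 and 9 kb, MMP also lies above them 9 and 6 kb upstream, and ADAMTS falls below them at 12 kb.

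Among the MMPs, the highest body signal was in MMP11 (stromelysin-3; chr17:73213794-73222793, 3 windows). Its body gave 2.46, 2.99 and 1.52 RPKM at 5 months and 3.04, 3.51 and 1.11 RPKM at 16 months, a mean of 2.44 ± 0.94 (SD, n = 6). The MMP11 start was also the highest of the family, at 0.837 ± 0.336 RPKM, and its body lay at percentile 98.8 of all gene bodies. The membrane-type enzymes MMP15, MMP17 and MMP14 followed, with body means of 0.695 ± 0.205, 0.648 ± 0.203 and 0.524 ± 0.074 RPKM (SD, n = 6). These neighbours in the order differed by less than their spread over libraries.

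MMP14 (MT1-MMP), which sits in the plasma membrane, cleaves collagen there and activates the precursor of MMP2, had the lowest MMP start beside a well covered body. Its start held 2, 9 and 9 reads at 5 months, against 8, 0 and 7 at 16 months. The body gave 0.662, 0.467 and 0.524 RPKM at 5 months and 0.499, 0.456 and 0.537 RPKM at 16 months. The start mean of 0.0178 ± 0.0107 RPKM (SD, n = 6) was 29.5-fold below the body mean, and body exceeded start in every library. The upstream window of MMP14 carried the label MRPL52. MMP16, another membrane-type enzyme, had the second lowest MMP start (0.0237 ± 0.0101 RPKM) but also a low body (0.0464 ± 0.0177 RPKM). Taken as a group, the 6 membrane-type MMPs had a median body of 0.441 RPKM and a median start of 0.0940 RPKM.

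Of the gelatinases, which degrade denatured collagen and basement membrane collagen, MMP2 had a body of 0.211 ± 0.026 RPKM and a start of 0.0548 ± 0.0279 RPKM, with the body higher in 6 of 6 libraries. MMP9 had the opposite order of means, with 0.144 ± 0.066 RPKM at the start and 0.0805 ± 0.0502 RPKM in the body (SD, n = 6), and its body was the higher in 1 of 6 libraries. Starts of MMP25 (0.219 ± 0.078 RPKM), a membrane-type enzyme, and MMP28 (0.176 ± 0.046 RPKM), also called epilysin, were the next highest of the family after MMP11. Their bodies were close to these starts, at 0.240 ± 0.042 and 0.163 ± 0.042 RPKM.

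A cluster of 8 MMP genes lies on chromosome 15, where MMP13, MMP12, MMP3, MMP1, MMP8, MMP27, MMP20 and MMP7 fill 5910457 to 6402656, and their bodies were lower on the median than those of the other MMP genes. These include the collagenases, which open the triple helix of fibrillar collagen, stromelysin-1 (MMP3) and matrilysin (MMP7). The body means of the 8 genes ran from 0.0197 (MMP13) to 0.117 RPKM (MMP8), with a median of 0.0635 RPKM, against 0.322 RPKM for the 11 MMP genes elsewhere. By library, the median body in the cluster was 0.0539, 0.0870 and 0.0438 RPKM at 5 months and 0.0772, 0.0253 and 0.0723 RPKM at 16 months. The genes elsewhere gave 0.445, 0.315 and 0.229 RPKM at 5 months and 0.340, 0.221 and 0.257 RPKM at 16 months, above the cluster in every library. The cluster median was also below that of all gene bodies (0.0900 RPKM), and this held in every library. By library, all gene bodies had medians of 0.0798, 0.108 and 0.0823 RPKM at 5 months and 0.0938, 0.0588 and 0.115 RPKM at 16 months. Among all gene bodies MMP8 and MMP1 lay at percentiles 55.2 and 53.6. The other genes of the cluster lay between percentiles 9.86 (MMP13) and 49.9 (MMP7). MMP13 and MMP12 had the lowest bodies of the family (0.0197 ± 0.0095 and 0.0224 ± 0.0180 RPKM). Their starts of 3 to 17 and 2 to 21 reads per library leave an order of start and body within counting error. CpG density was not analysed here, so low density and low methylation cannot be told apart.

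In the ADAMTS family, ADAMTS13, the protease that trims von Willebrand factor, had the highest start. Its start gave 1.55, 1.27 and 0.572 RPKM at 5 months and 1.41, 1.23 and 0.564 RPKM at 16 months (mean 1.10 ± 0.43, SD, n = 6). Its body of 1.68 ± 0.63 RPKM exceeded the start in all 6 libraries. ADAMTS10, which binds fibrillin microfibrils, came second with a start of 0.655 ± 0.238 and a body of 0.948 ± 0.276 RPKM. All 11 windows of ADAMTS13 and all 6 windows of ADAMTS10 carried coding segments and passed the filter for testing. ADAMTS2 (0.310 ± 0.189 RPKM) and ADAMTS4 (0.157 ± 0.046 RPKM) had the next highest starts. ADAMTS12, which cleaves cartilage oligomeric matrix protein, and ADAMTS19 had the lowest, at 0.0154 ± 0.0064 and 0.0176 ± 0.0115 RPKM, with 1 to 11 reads per library. The lowest ADAMTS bodies were those of ADAMTS19 (0.0248 ± 0.0099 RPKM) and ADAMTS6 (0.0255 ± 0.0120 RPKM), which overlapped across libraries.

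The proteoglycanases cut aggrecan, versican or related core proteins. Over the 7 genes the median was 0.0539 RPKM at starts and 0.315 RPKM in bodies, and the body was higher in all 6 libraries in each gene but ADAMTS20, where it was higher in 5. ADAMTS4 (aggrecanase-1) had body values of 1.54, 1.30 and 0.729 RPKM at 5 months and 1.16, 1.27 and 0.558 RPKM at 16 months, 6.96-fold above its start on the means. ADAMTS8 and ADAMTS15, neighbours on chromosome 29 on opposite strands, were 11.6-fold and 7.46-fold higher in the body than at the start, and ADAMTS1 was 15.0-fold higher. ADAMTS5 (aggrecanase-2), a neighbour of ADAMTS1 on chromosome 1, differed less, with 0.0705 ± 0.0165 RPKM at the start and 0.123 ± 0.016 RPKM in the body (SD, n = 6). ADAMTS9 and ADAMTS20 had low bodies, at 0.0561 ± 0.0206 and 0.0493 ± 0.0081 RPKM, which were 2.03-fold and 1.46-fold above their starts. ADAMTS1, ADAMTS5, ADAMTS8, ADAMTS9, ADAMTS15 and ADAMTS20 were named after their values were seen.

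Among the procollagen N-propeptidases, which remove the amino-terminal propeptide of fibrillar collagens, ADAMTS2 and ADAMTS14 had bodies of 0.437 ± 0.129 and 0.429 ± 0.101 RPKM, a difference within their spread. By the mean ADAMTS3 had the highest body of all ADAMTS genes, at 1.73 ± 0.17 RPKM. The ADAMTS13 body (1.68 ± 0.63 RPKM) was above it in both libraries of animals 1 and 2 and below it in those of animal 3. Nearly all of the ADAMTS3 signal came from 7 adjoining windows without a coding segment (chr6:89200982-89221981). These windows held 97.9 ± 0.65% of the reads of the gene (SD, n = 6) and gave 23.5, 21.4 and 25.8 RPKM at 5 months and 23.2, 22.1 and 27.8 RPKM at 16 months. All 5 member windows with the highest signal lay there, led by the window at 89200982 with 46.9 ± 7.15 RPKM. The rest of the ADAMTS3 body gave 0.0381 ± 0.0114 RPKM, and its start 0.0215 ± 0.0073 RPKM. These 7 windows took 40.2 to 55.3% of all reads of the 40 genes. Their highest depth at a single position was 0.293 to 0.742 of the read count of the window, against 0.0859 in the MMP11 window with the most signal, and how the alignment treated reads of repeated sequence was not stated in the sources read here. The part of repeated sequence in this signal was not tested. Without these windows the start minus body difference of the ADAMTS family was -0.96 (exact p = 0.0312, adjusted 0.0469).

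None of the 3 inhibitor bodies was above 0.5 RPKM, against 19.3% of all gene bodies. Each lay above the median of all gene bodies, at percentiles 70.9 (TIMP2), 51.6 (TIMP3) and 60.0 (TIMP4). TIMP2, which binds MMP14 and takes part in the activation of MMP2, gave 0.431, 0.151 and 0.165 RPKM at its start at 5 months and 0.120, 0.101 and 0.161 RPKM at 16 months. The 5-month culture of animal 1 was far above the other 5 libraries, which lay close together. The TIMP2 body was 0.280 ± 0.069 RPKM (SD, n = 6). TIMP3, the inhibitor that binds to the matrix and also blocks several ADAMTS enzymes, had the lowest start of the inhibitors (0.0299 ± 0.0110 RPKM, 3 to 15 reads per library) and a body of 0.0971 ± 0.0453 RPKM. It lies within SYN3, whose label was on 16 windows in its span. TIMP4 gave 0.179 ± 0.064 RPKM at the start and 0.152 ± 0.049 RPKM in the body, with the body higher in 3 of 6 libraries.

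Families were compared on the same scale within libraries. The body of ADAMTS genes exceeded that of MMP genes by 0.63, 0.49 and 0.48 (log2) at 5 months and by 0.60, 0.85 and 0.48 at 16 months. The mean difference was 0.59 ± 0.14 (SD, n = 6; exact p = 0.0312, adjusted over 6 differences 0.0625). Without the 7 ADAMTS3 windows it was 0.35 (exact p = 0.0312, adjusted 0.0938). TIMP bodies were below ADAMTS bodies in 6 of 6 libraries (-0.66 ± 0.37, exact p = 0.0312, adjusted 0.0625), and without the ADAMTS3 windows the difference was -0.42 (exact p = 0.0938, adjusted 0.141). TIMP starts were above MMP starts in 6 of 6 (0.28 ± 0.29, exact p = 0.0312, adjusted 0.0625). ADAMTS starts were above MMP starts in 5 of 6 libraries (0.14 ± 0.10, exact p = 0.0625, adjusted 0.0938). TIMP minus MMP bodies (-0.07 ± 0.26, exact p = 0.531) and TIMP minus ADAMTS starts (0.13 ± 0.29, exact p = 0.344, adjusted 0.412) varied in sign between libraries. No family difference passed an adjusted p of 0.05. With 6 libraries the exact p cannot fall below 0.0312, so passing depends on how many of the 6 differences reach that limit together. Libraries of the same animal are also not independent.

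Within bodies and without the ADAMTS3 windows above, windows that carried a coding segment had a median of 0.0976 RPKM (n = 317), and the other windows 0.0337 RPKM (n = 851). In MMP genes the medians were 0.110 and 0.0328 RPKM, and in ADAMTS genes 0.0814 and 0.0332 RPKM. The 19 TIMP windows gave 0.152 RPKM with and 0.156 RPKM without a coding segment. The windows were pooled over genes, so the medians also depend on which genes hold many windows without a coding segment. MMP16, with 119 windows of which 10 carried a coding segment, held most of the 146 MMP windows without one. Its body was low, at 0.0464 RPKM. The difference within single genes was not tested. Windows of a gene are not replicates, so this difference is a description. The coding windows were higher in every library, with medians over all members from 0.0461 to 0.150 RPKM, against 0.0184 to 0.0547 RPKM for the others.

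No member window was called by age. Of the 1215 windows 242 passed the filter of 1 CPM in at least 3 of 6 libraries (40 MMP, 196 ADAMTS and 6 TIMP windows of 31 genes), and 0 of 242 were called in edgeR's quasi-likelihood test with the animal as a block at an FDR under 0.1 and a fold change of at least 2. Over all windows 194 of 104658 were called (0.185%). At an unadjusted p under 0.05 there were 27 member windows, 20 higher at 5 months (4.15% of all windows) and 7 higher at 16 months (2.95% of all windows), where 7.10% of all windows passed. Of the 242, 134 (55.4%) were higher at 5 months, against 52.6% of all, and the median log2 fold change (5 months over 16 months) was 0.03. DESeq2 called 0 of 242 and had 11 at an unadjusted p under 0.05. Of all 104658 windows it called 15 (0.0143%) and had 2271 at an unadjusted p under 0.05. The member windows tested had a median of 71 reads per library and all member windows a median of 6, so that low windows could not be tested.

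The 5 member windows with the lowest p belonged to 5 genes and each carried a coding segment. In ADAMTS2 (chr7:2033246-2036245, segment 3) the TMM-scaled CPM were 5.20, 2.65 and 2.34 at 5 months and 1.89, 1.49 and 1.68 at 16 months. All 5-month values lay above all 16-month values. The ages did not overlap, in either direction, in 19 of 242 member windows (7.85%) and in 5.28% of all windows. The log2 fold change of this ADAMTS2 window, 0.97 ± 0.26 (SE, n = 3 per age), had an adjusted p of 0.0943 in edgeR's test, under the FDR limit but short of 2-fold. It was the only member window under that limit, against 0.325% of all windows. Without animal 1 the log2 fold change was 0.66, and in CPM without TMM factors the ages overlapped, with 1.45 at 5 months in animal 3 and 1.81 at 16 months in animal 1. In ADAMTS10 (chr7:18391846-18394845, segment 23) the values were 2.90, 4.14 and 6.11 CPM at 5 months and 7.18, 9.17 and 5.13 CPM at 16 months. They were higher at 16 months in animals 1 and 2 and lower in animal 3 (log2 fold change -0.74 ± 0.22, edgeR adjusted p = 0.152). The SE of these fold changes rests mostly on a spread shared over all windows tested and does not measure the spread between the 3 animals. The MMP14 window (chr10:21808401-21811400, segment 5) gave 2.25, 1.09 and 4.63 CPM at 5 months and 0.931, 0.248 and 3.56 CPM at 16 months. It was higher at 5 months in 3 of 3 animals, with a log2 fold change of 1.03 ± 0.31 (edgeR adjusted p = 0.192). The groups overlapped, because animal 3 was high at both ages.

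In ADAMTS8 (chr29:37103019-37106018, segment 6) the values were 3.82, 1.79 and 3.42 CPM at 5 months and 1.31, 0.991 and 2.90 CPM at 16 months (log2 fold change 0.88 ± 0.28, edgeR adjusted p = 0.224). All animals were higher at 5 months, and the groups overlapped. ADAMTS17 (chr21:6780963-6783962, segment 13) went the other way, with 1.52, 0.729 and 1.34 CPM at 5 months and 2.24, 2.23 and 2.79 CPM at 16 months. Its groups did not overlap, as in 5.28% of all windows tested, and the log2 fold change was -1.05 ± 0.33 (edgeR adjusted p = 0.228).

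**Figure D4:**
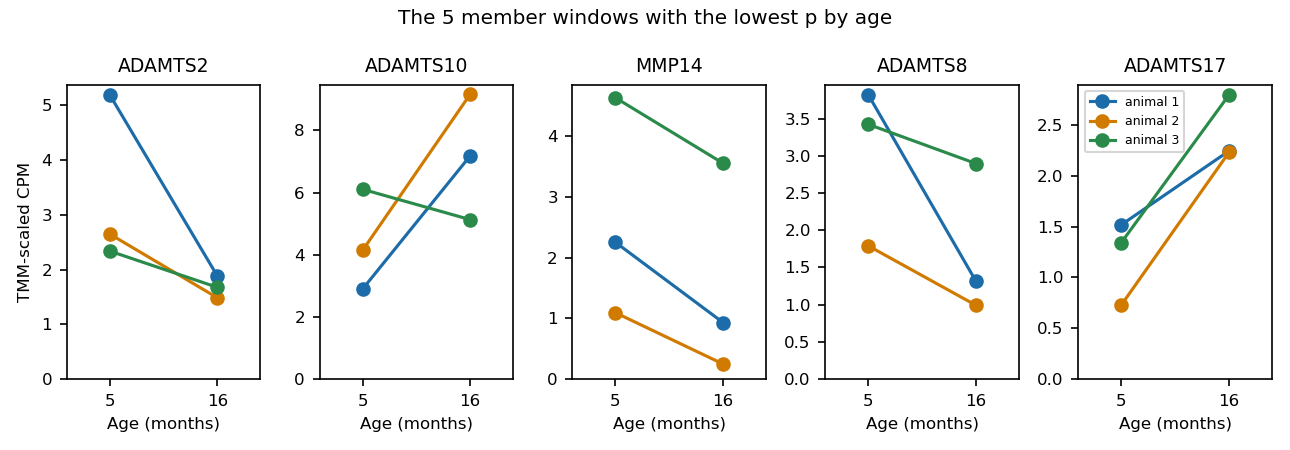
TMM-scaled CPM of the 5 member windows with the lowest p by age, with a line per animal from 5 to 16 months and an axis from 0 in each panel. Lines fall in all 3 animals in ADAMTS2, MMP14 and ADAMTS8 and rise in all 3 in ADAMTS17. In ADAMTS10 they rise in animals 1 and 2 and fall in animal 3.

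The count of 0 rested on animal 3. Without its libraries 7 member windows were called, where 1278 of 103419 windows were called in all (1.24%), and the spread was then estimated from 2 animals. Those 7 were 2 windows of ADAMTS2 and 1 each of ADAMTS8, ADAMTS10, ADAMTS14, ADAMTS18 and TIMP2. The ADAMTS18 and TIMP2 windows failed the filter over all 6 libraries and passed here only through the 5-month libraries, where they were high, so their direction carries no weight. Of the others the ADAMTS10 window was higher at 16 months. The TIMP2 window (chr19:54092075-54095074, without a coding segment) had 48, 43 and 36 reads at 5 months, against 21, 2 and 27 at 16 months. It was called with a filter of 0.5 CPM (log2 fold change 1.73, edgeR adjusted p = 0.0594), as the only member of 368 tested, against 0.0534% of all windows. The ADAMTS18 window (chr18:4703398-4706397) carried coding segment 1 and had 39, 59 and 30 reads at 5 months, against 25, 8 and 16 at 16 months.

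With all windows of a gene summed, 38 of 40 genes were tested and 0 were called by age, against 2 of 18039 genes (0.0111%). None of the 38 had an unadjusted edgeR p under 0.05, where 112 genes of all did (0.621%). DESeq2 had 0 as well, where 100 genes of all passed. The lowest p was that of MMP9, with 71, 85 and 69 reads at 5 months, against 65, 29 and 44 at 16 months. Scaled by TMM it was higher at 5 months in 3 of 3 animals, with a log2 fold change of 0.87 ± 0.46 (SE) and an unadjusted edgeR p of 0.0629 that was 1 after adjustment. TIMP2 (0.43 ± 0.25), ADAMTS19 (-0.45 ± 0.29), MMP19 (0.42 ± 0.38) and MMP28 (0.40 ± 0.37) followed, each with an edgeR adjusted p of 1. The matrix turnover genes listed beside the members, among them plasminogen activators, cathepsins and ADAM proteases, gave 0 called of 36 genes and 0 of 16 starts tested. Of their 204 windows tested 1 was called, in LRP1 (chr5:56610606-56613605, log2 fold change 1.00 ± 0.23, edgeR adjusted p = 0.0240), which encodes an endocytic receptor for protease and inhibitor complexes.

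At starts, 16 of 40 genes were tested and 0 were called by age, against 24 of 8869 starts (0.271%). Of the 16, 5 had an unadjusted p under 0.05, where 7.68% of all starts did, and their edgeR adjusted p ranged from 0.407 to 0.534. ADAMTS2, TIMP2, MMP25 and TIMP4 were higher at 5 months (3.63% of all starts, with log2 fold changes of 0.61 ± 0.24, 0.81 ± 0.32, 0.68 ± 0.28 and 0.70 ± 0.32), each in 3 of 3 animals. Without animal 1 the log2 fold change of the TIMP2 start fell to 0.30. MMP7 was higher at 16 months (4.05% of all starts) in 3 of 3 animals, at -0.98 ± 0.40, with 14, 41 and 32 reads at 5 months, against 85, 45 and 41 at 16 months. DESeq2 called 0 of the 16 starts and had 1 at an unadjusted p under 0.05. Of all 8869 starts it called 1 (0.0113%) and had 226 at an unadjusted p under 0.05. The 16 starts that passed the filter are those of higher signal, so the other 24 genes are not described by this test.

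On the mean over genes, the design could not call a family by age, since with 3 animals the exact sign-flip p cannot fall below 0.25. For MMP starts the 5 minus 16 months difference was 0.01, 0.51 and -0.33 (log2) in animals 1, 2 and 3, and for MMP bodies -0.06, 0.46 and -0.12. ADAMTS starts gave -0.03, 0.45 and -0.14, and ADAMTS bodies -0.03, 0.10 and -0.12. TIMP starts gave 0.65, 0.65 and -0.0030, and TIMP bodies -0.04, 0.53 and -0.10. Animal 2 was higher at 5 months in all 6 comparisons, and animal 3 was not higher in any. The medians over all labelled genes moved in the same way in RPKM, from 0.108 at 5 months to 0.0588 at 16 months in animal 2 and from 0.0823 to 0.115 in animal 3 for bodies, and from 0.0708 to 0.0323 and from 0.0506 to 0.0752 for starts. The exact p ranged from 0.50 to 1 (adjusted 1 in all), and the mean exceeded the SD over animals for TIMP starts (0.43 ± 0.38, n = 3).

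Between animals, 37 of 242 member windows (15.3%) were called in edgeR's test of the animal terms at an FDR under 0.1 and at least 2-fold between the highest and the lowest animal, against 20.6% of all windows. They were 30 of 196 ADAMTS, 6 of 40 MMP and 1 of 6 TIMP windows. With TMM factors 30 of the 37 (81.1%) were highest in animal 3, as were 81.5% of all called windows. This direction depends on the scaling and on the filter. With library size only 87 of 242 windows were called, against 39.1% of all windows. Of these 87, 77 were lowest and 5 highest in animal 3, where 11.4% of all called windows were highest. With a filter of 0.5 CPM 61 of 368 windows (16.6%) were called, against 18% of all. Of these 61, 43 were lowest and 16 highest in animal 3, where 39.5% of all called windows were highest. Without animal 3, 2 of 248 windows were called (0.806%), against 1.43% of all. The largest difference was that of the MMP14 window above, with 1.59, 0.670 and 4.10 CPM as TMM-scaled means of animals 1, 2 and 3 and a log2 difference of 2.70. Without TMM factors the same window gave 2.87 and 2.35 CPM in the 5- and 16-month cultures of animal 3 and 1.03 and 0.232 CPM in those of animal 2. Windows of ADAMTS2 (chr7:2120246-2123245, 2.18), ADAMTS16 (chr20:68024918-68027917, 2.08) and ADAMTS14 (chr28:26992565-26995564, 1.86, and chr28:26989565-26992564, 1.85) followed in log2 difference, each highest in animal 3 and lowest in animal 2 with TMM factors.

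In gene bodies the size of the difference, and in some genes its sign, depended on the scaling. In RPKM both libraries of animal 3 were below the other 4 in the bodies of 14 of 40 genes, against 28.1% of all gene bodies, and above them in 6 of 40, against 5.20% of all. With TMM scaling they were below in 3 of 40, against 9.29% of all, and above in 18 of 40, against 40.1% of all. The MMP11 body of animal 3 differed from the mean of the other animals by -1.19 (log2) in RPKM and by -0.55 with TMM scaling. For ADAMTS13 the difference was -1.26 in RPKM and -0.61 with TMM scaling, and both libraries of animal 3 were below the other 4 under either scaling. By the mean of its libraries, animal 3 was also lower in ADAMTS4, ADAMTS10, ADAMTS15, MMP15 and MMP17 under both scalings. With TMM scaling both of its libraries were below the other 4 only in ADAMTS15 and MMP17 of these. The MMP2 body was 0.16 above the other animals in RPKM and 0.81 above with TMM scaling. MMP14 moved from 0.03 to 0.69, and ADAMTS8 and TIMP2 changed sign, from -0.58 to 0.08 and from -0.37 to 0.30.

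**Figure D5:**
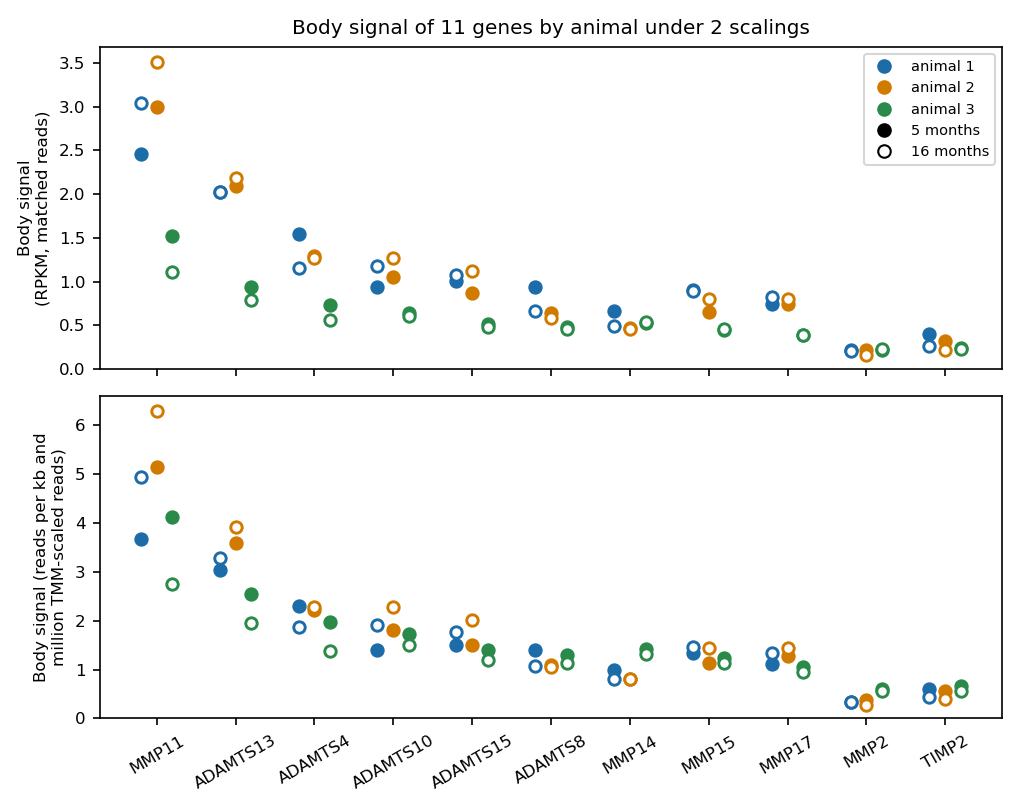
Body signal of 11 genes in the 6 libraries, in RPKM over matched reads (upper panel) and per kb and M TMM-scaled reads of the tested windows (lower panel), with colours for animals, filled points for 5-month and open points for 16-month cultures. Both libraries of animal 3 lie below the other 4 in the upper panel at all genes shown but MMP14, MMP2 and TIMP2. In the lower panel they do so at ADAMTS13, ADAMTS15 and MMP17 and lie above the other 4 at MMP14 and MMP2.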

How the data were processed

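MIRA-Seq libraries of 6 unstimulated fibroblast cultures were analysed. The authors trimmed and filtered reads, aligned them to UMD v3.1 with NextGENe (2.3.4 in the submitters' processing notes) and deposited raw read counts per window of about 3 kb, without normalization. Beside the counts, the deposited files give the highest depth of coverage of a window, a signal not scaled to library size, which was used only to look for stacks of reads. The treatment of PCR copies was not stated in the sources read here. Positions, gene labels, strands and coding segment numbers are those of the files, and no sequence of these genes was used here. Windows whose stated end lies before their start were given a length of 3 kb.

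Members, roles and related genes were chosen with earlier results of these data known. Named with values were called items, the 5 windows and genes with the lowest p by age, the 4 highest and 2 lowest MMP and ADAMTS starts and bodies, all TIMP genes, the 5 windows of highest RPKM and the 5 with the largest difference between animals. Other genes were named for their role or as exceptions after their values were seen.

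Counts were scaled by TMM and tested for age within animals (a blocked quasi-likelihood model of edgeR 4.0.16, run under R 4.3.3 and limma 3.58.1), and with Benjamini-Hochberg adjustment over all windows, genes or starts tested. Positive log2 fold changes are higher at 5 months. The standard error was taken as the size of the log2 fold change over the square root of F. The block left 2 residual degrees of freedom, with 178 prior degrees of freedom for windows. The standard errors of windows thus rest mostly on the spread shared over windows and do not measure that between the 3 animals. DESeq2 1.42.0 was an alternative. Families were compared with exact two-sided sign-flip tests in Python 3.11.15 (numpy 2.4.6, pandas 2.3.3). Figures used matplotlib 3.10.9. TMM-scaled CPM of windows are over the reads of the tested windows.

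The pairing comes from the animals. Deviations of libraries from the mean of their age had a correlation of 0.251 (animal 1), 0.496 (animal 2) and 0.708 (animal 3) between ages. These correlations do not test the pairing, because animal 3 stood apart and moved the mean of each age away from animals 1 and 2 together. The 16-month library of animal 1 had a Spearman correlation of 0.900 with its 5-month library. With the 5- and 16-month libraries of animal 2 it was higher, at 0.936 and 0.957.

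The test was tested on simulated counts. Of 200 windows changed 4-fold among 104658, 200 were recovered with 12 false calls, and of 200 changed 2-fold 79 with 5 false calls. For the 18039 genes 198 and 71 of 200 were recovered, and for the 8869 starts 198 and 101.

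Depth was 19.9 to 43.6 M counted reads per library, and starts of members had a median of 21 reads per library. PCR copies were not removed here, so counting error is a lower limit of the error.

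The alternatives were other tests, scalings, filters, thresholds, no block, leaving out each animal, and other pseudocounts, summaries, denominators and definitions of start and body. Added after seeing the data were 2 that leave out the ADAMTS3 windows or genes without the first coding segment in their first window.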

Additional observations from a re-analysis of the deposited data

How the results depend on the processing

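By age, 0 member genes and 0 member starts were called under every alternative run, including leaving out each animal (0 to 0). Without animal 2, 278 of 18227 genes were called in all (1.53%), and without animal 3, 119 of 8725 starts (1.36%). The other tests, scalings, filters and omissions of an animal called at most 2 genes and 30 starts of all. The 0 of the members is therefore no result about them. For windows the count was 1 with a filter of 0.5 CPM (TIMP2), 1 with no minimum fold change (ADAMTS2), 0 to 7 when an animal was left out, with 7 without animal 3, and 0 under the other alternatives. Of all windows 0.0534%, 0.325% and 1.24% were called with that filter, with no minimum fold change and without animal 3. The other alternatives called at most 0.199%. The fit without the replicate block called 0 of all 104658 windows, 18039 genes and 8869 starts, the members among them. At an unadjusted edgeR p under 0.05 it had 7 member windows, 1 member gene and 1 member start. Over all features it had 1282 windows, 52 genes and 163 starts there. With the block 194 windows, 2 genes and 24 starts of all were called, so the 0 of the members without it is no result about them. Between animals the count of 37 became 87 with library size only and 61 of 368 with a filter of 0.5 CPM (39.1% and 18% of all windows called). Leaving out an animal gave 2 to 37, with 23 without animal 2 and 2 without animal 3 (14.4% and 1.43% of all windows called).

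Start minus body kept its sign in MMP and ADAMTS under all alternatives. Its size depends on the pseudocount, with -0.97 (MMP) and -1.54 (ADAMTS) at 0.01 RPKM and -0.29 and -0.48 at 0.5 RPKM. Leaving out an animal gave -0.82 to -0.71 for MMP and -1.27 to -1.16 for ADAMTS, each no longer past the threshold because 4 libraries cannot give an exact p below 0.125. For TIMP, with 3 genes, it became 0.013 with the median over genes, -0.78 with the first labelled window only and -0.70 for genes with the first coding segment in their first window, the last 2 past the threshold, and ranged from -0.49 to -0.32 without an animal.

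Whether a family difference passes the threshold depends on how many of the 6 reach the smallest exact p together. With a pseudocount of 0.5 RPKM, 4 family differences passed the threshold: ADAMTS minus MMP bodies 0.26 and starts 0.072, TIMP minus MMP bodies -0.13 and TIMP minus ADAMTS bodies -0.40. With the median over genes these were ADAMTS minus MMP bodies 0.89, TIMP minus ADAMTS bodies -0.74 and starts 0.72, and TIMP minus MMP starts 0.87. Without the highest window of each gene they were ADAMTS minus MMP bodies 0.64 and starts 0.36, TIMP minus ADAMTS bodies -0.55 and TIMP minus MMP starts 0.49. TIMP minus MMP bodies reversed to 0.068 with a pseudocount of 0.01, 0.15 with the median over genes and 0.088 without the highest windows, and ranged from -0.23 to 0.055 without an animal. TIMP minus MMP starts reversed to -0.17 with the first labelled window only. TIMP minus ADAMTS starts reversed to -0.019 with a pseudocount of 0.5, -0.25 with the first labelled window only and -0.043 for genes with the first coding segment.

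By age, ADAMTS bodies reversed to 0.0062 with a pseudocount of 0.5, 0.0044 without the highest windows and 0.0030 for genes with the first coding segment, and ranged from -0.074 to 0.039 without an animal. TIMP bodies reversed to -0.016 with the median over genes and ranged from -0.071 to 0.24. MMP starts ranged from -0.16 to 0.26, MMP bodies from -0.088 to 0.20 and ADAMTS starts from -0.085 to 0.21, with the reversals on leaving out animal 2. None of these age values passed a threshold in either direction, and the cause of the reversals was not tested.

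Low counts limit the result: 973 of 1215 member windows were not tested, and labels resolve windows and not promoters. With 3 animals, tests over animals cannot pass 0.05.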
